A study of Mus musculus with 6 samples.

Results

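Mitotic kinases, kinetochore proteins and spindle checkpoint proteins are described here through the mRNA of 36 genes in RAW264.7, a mouse macrophage-like cell line that divides continuously in culture. The members were listed by symbol, all 36 were found among the 22105 genes of the deposited table that carry an Ensembl gene identifier, and all 36 passed the filter on low values. One group of 3 libraries came from cells exposed to nanoparticles named CM-PEG-PLGA@DOX/R848, at a dose equivalent to 2 µg/mL DOX, and the other group of 3 libraries came from cells given phosphate buffered saline (PBS). Both exposures lasted 24 h. DOX is doxorubicin, which poisons topoisomerase II and damages DNA. R848 is resiquimod, a Toll-like receptor agonist, PLGA and PEG are polymers, and CM is not spelled out in the labels. No library received the drug, the agonist or the carrier on its own, so their parts cannot be told apart. The labels number replicates 1 to 3 in each group without saying whether these were separate cultures, so the p-values measure the spread between these libraries, which may be technical.

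Before a cell divides, the kinase Cdk1 drives it into mitosis, and kinetochores assemble on the centromere of each chromosome to hold the microtubules of the spindle. The spindle checkpoint watches for kinetochores that have not caught a microtubule. While any remain, checkpoint proteins sequester Cdc20, the activator of the anaphase promoting complex, so that securin and cyclin B are kept and the sister chromatids stay joined. Genes of this system are transcribed mainly in the G2 and M phases, and many of their promoters hold a short element called the cell cycle genes homology region (CHR) near CCAAT boxes.

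Expression is in FPKM, which divides fragments by transcript length and library size, so levels can be compared between genes. The unit was inferred from the deposited values, whose header names none. Libraries summed to 451056 to 469220 FPKM, and the read depth behind them is unknown. Genes above 0 numbered 15723 to 15989 in nanoparticle and 12678 to 12872 in PBS libraries. All 8 macrophage markers examined were present in every library, with summed levels of 1424 to 1513 FPKM in nanoparticle and 3363 to 3502 FPKM in PBS libraries. They did not move alike. Csf1r was at 47.4 to 50.6 FPKM in nanoparticle and 291 to 305 FPKM in PBS libraries. Only Adgre1 was higher, at 11.2 to 13.4 FPKM in nanoparticle and 1.61 to 1.96 FPKM in PBS libraries. The 14 markers of epithelial cells, fibroblasts, T cells and B cells summed to 0.825 to 1.35 FPKM in nanoparticle and 0.0805 to 0.304 FPKM in PBS libraries, with Krt18 at 0 throughout, and their part in the results was not tested. Fold changes are nanoparticle over PBS on the log2(FPKM + 1) scale with their standard error (SE), tested with limma across 10229 genes at a Benjamini-Hochberg adjusted p below 0.05. Genes that pass are called higher or lower, and each mean carries its SD (n = 3 libraries per group). Because these are bulk samples, fewer cells in mitosis and less RNA per mitotic cell cannot be told apart.

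The promoters are shown first, since the CHR and the CCAAT box are what many of these genes are known to share. RefSeq promoter windows on GRCm38.p6, each 250 bases before to 50 bases after an annotated start, were available for 30 of the 36 members, with 35 windows in all. Below are the last 100 bases before the start for some members, shown as examples and not drawn by a rule. Of these, 3 rose (Aurka, Cdc20, Prc1), 4 fell (Cenpm, Nuf2, Mad2l1, Espl1) and Cdk1 was not called. For a gene with several windows, one holding TTTGAA in this stretch was picked where there was any, as for Prc1. Capitals mark TTTGAA or TTCGAA, the letters searched for the CHR, and CCAAT, each on either strand.
Aurka (chr2:172370571-172370670, minus strand): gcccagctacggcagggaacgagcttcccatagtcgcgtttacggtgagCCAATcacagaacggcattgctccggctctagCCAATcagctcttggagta
Cdc20 (chr4:118437344-118437443, minus strand): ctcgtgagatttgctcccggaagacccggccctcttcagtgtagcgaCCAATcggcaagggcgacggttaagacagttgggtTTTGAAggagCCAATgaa
Prc1 (chr7:80294376-80294475, plus strand): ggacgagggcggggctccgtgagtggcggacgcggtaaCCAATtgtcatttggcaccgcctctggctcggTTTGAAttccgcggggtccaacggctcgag
Cenpm (chr15:82244337-82244436, minus strand): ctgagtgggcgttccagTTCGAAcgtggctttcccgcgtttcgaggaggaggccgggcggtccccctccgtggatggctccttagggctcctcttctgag
Nuf2 (chr1:169531465-169531564, minus strand): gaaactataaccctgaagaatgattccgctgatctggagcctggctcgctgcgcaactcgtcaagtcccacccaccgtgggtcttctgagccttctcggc
Mad2l1 (chr6:66535121-66535220, plus strand): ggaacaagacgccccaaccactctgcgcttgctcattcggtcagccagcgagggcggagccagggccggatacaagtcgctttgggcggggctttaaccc
Espl1 (chr15:102296193-102296292, plus strand): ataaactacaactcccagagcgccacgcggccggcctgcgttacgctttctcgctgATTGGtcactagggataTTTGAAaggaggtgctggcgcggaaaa
Cdk1 (chr10:69352913-69353012, minus strand): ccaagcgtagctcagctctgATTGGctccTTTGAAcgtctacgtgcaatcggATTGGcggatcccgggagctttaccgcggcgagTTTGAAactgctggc

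In the Cdc20 promoter TTTGAA began 18 bases before the start and sat between a pair of CCAAT boxes. Espl1 had it 27 bases before the start, just downstream of a CCAAT box in reverse, and Cdk1 had it at 15 and 71 bases before. Aurka held a pair of CCAAT boxes in the stretch shown, and its TTTGAA began at base 33 after the start. Cenpm held TTCGAA, 83 bases before the start, and neither Nuf2 nor Mad2l1 had any of these letters anywhere in the window. These starts are from RefSeq and can differ from the GENCODE gene coordinates given below. The Mad2l1 stretch ends at 66535220, before the GENCODE start at 66535390. The Cenpm stretch lies inside the GENCODE gene, which starts at 82244748.

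Over all members with a window, 19 of 30 genes held TTTGAA or TTCGAA, 22 held CCAAT and 17 held both kinds. By promoter, TTTGAA or TTCGAA stood in 60.0% of the 35 member windows, against 14.4% of the 10335 windows of tested genes and 19.2% of all 32851 windows. CCAAT stood in 74.3%, against 38.5% and 37.4%. By direction of change, TTTGAA or TTCGAA was present for 9 of the 12 members that were higher, 6 of 11 that were lower and 4 of 7 that were not called. Among members not shown above, Cenpe, Cenph and Pttg1 were higher without either, and Bub1, Bub1b, Knl1 and Ttk were lower with 1 or both. TTTGAA alone, on either strand, was present for 8 of 12, 4 of 11 and 4 of 7. These are matches of letters, described without a test, and a window without them says nothing about the factors that bind there. No window was used for Zwilch, not called, or for Spc24, Aurkb, Incenp, Cdc25c and Tpx2, all called lower. The comparison by direction is therefore complete for the higher members but not for the lower ones.

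In the values as deposited, the summed level of these genes differed between groups by less than the SD among the nanoparticle libraries. Single genes were called in both directions. Summed over the 36 members, expression was 1793 ± 37.5 FPKM in nanoparticle and 1769 ± 7.35 FPKM in PBS cells. The most abundant members weigh most in these sums, which were not taken under other scalings. The median level of the members was 36.2 FPKM in nanoparticle and 43.9 FPKM in PBS cells. Of the 36, 12 were called higher, 16 lower and 8 not called. That is 77.8% called, beside 77.2% of all tested genes, so the share of members called is near the background. Higher members made up 33.3% against a background of 42.7%, and lower members 44.4% against 34.5%. A called change of at least 1 log2 unit was found for 3 members, all lower (8.3%), beside 17.7% of tested genes. The median log2 fold change was -0.08 for the members and 0.08 for all tested genes. Upper quartile scaling moved the median of all tested genes by over 0.1, to -0.03, and the members' calls to 8 higher and 21 lower, beside 36.5% higher and 40.7% lower of tested genes under that scaling. With the replicate number as a block, 13 members were higher and 17 lower, beside 45.1% higher and 36.6% lower of tested genes. No called member changed direction under that or any other scaling. Groups did not overlap for 28 of 36 members (77.8%), beside 78.8% of tested genes. These are not the same genes as those called. Ttk and Knl1 were called with overlapping groups, and Cenpk and Birc5 were not called although their groups did not overlap.

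**Figure D1:**
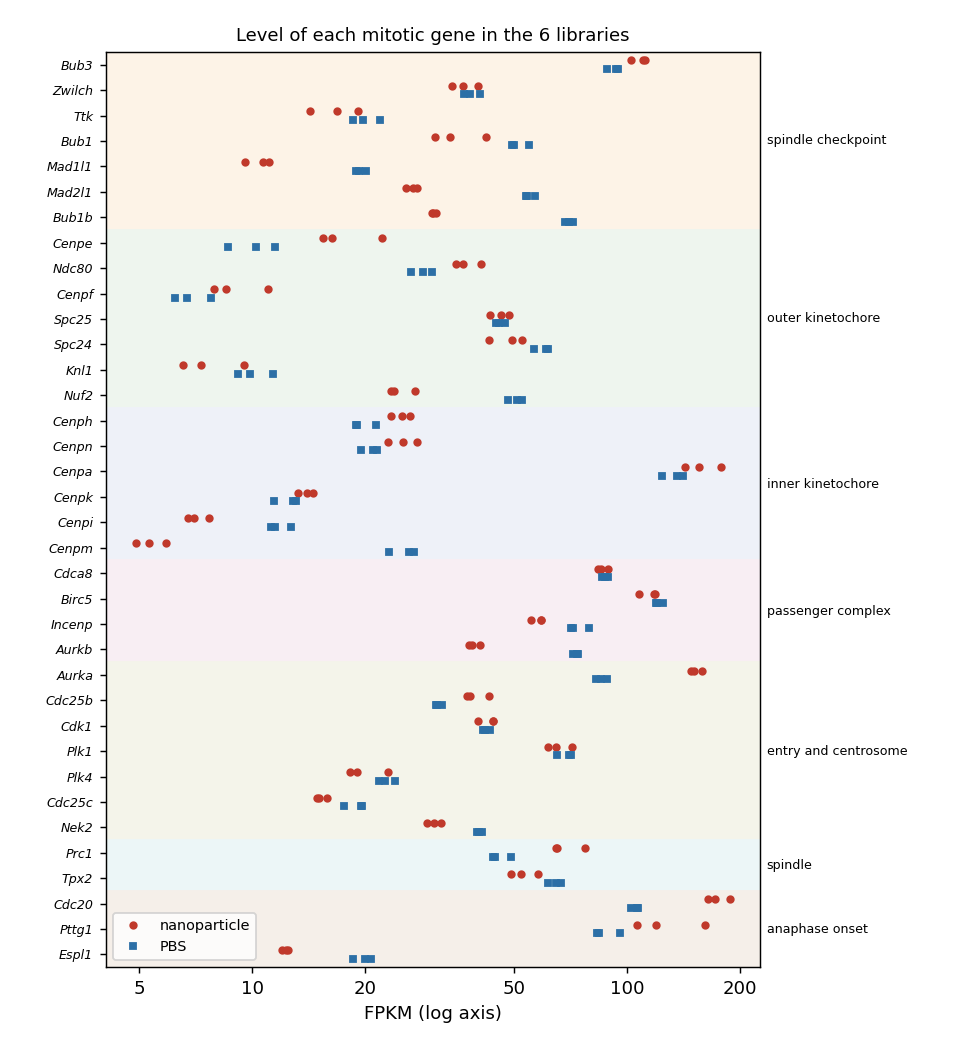
FPKM of each of the 36 mitotic genes (log axis) in the 3 nanoparticle libraries (red circles) and the 3 PBS libraries (blue squares), grouped by role and ordered by fold change within a role. Aurka and Cdc20 lie far to the right of their PBS values, and Bub1b, Mad2l1, Nuf2 and Cenpm far to the left.

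The spindle checkpoint genes were lower in 5 of 7 members, with 1 higher and 1 not called. That is 71.4% lower and 14.3% higher, beside 34.5% and 42.7% of tested genes. Their median log2 fold change was -0.53. Bub1b (ENSMUSG00000040084, chromosome 2, 118598211 to 118641591, GRCm38, plus strand) encodes BubR1, the part of the checkpoint complex that holds Cdc20, and had 31.0, 30.4 and 30.2 FPKM in the nanoparticle libraries, against 71.8, 68.3 and 70.1 FPKM in the PBS libraries. The groups were far apart and each was tight (log2 fold change -1.17 ± 0.05 SE, limma adjusted p = 2.5e-08). Mad2l1 (ENSMUSG00000029910, chromosome 6, 66535390 to 66547220, plus strand) encodes Mad2, the other protein that clamps Cdc20, and had 25.8, 27.5 and 26.8 FPKM in the nanoparticle libraries, against 54.0, 56.8 and 53.8 FPKM in the PBS libraries. It was lower too, again without overlap (log2 fold change -1.01 ± 0.05 SE, limma adjusted p = 1.1e-07). Mad1l1 (ENSMUSG00000029554, chromosome 5, 140008689 to 140321552, minus strand) encodes Mad1, which brings Mad2 to unattached kinetochores, and had 10.7, 11.1 and 9.56 FPKM in the nanoparticle libraries, against 20.1, 18.9 and 19.3 FPKM in the PBS libraries. It too was lower without overlap (log2 fold change -0.84 ± 0.07 SE, limma adjusted p = 2.6e-06).

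The kinases and adaptors upstream in the checkpoint moved less. Bub1 encodes a kinase and scaffold of the kinetochore, and had 30.7, 33.8 and 42.0 FPKM in the nanoparticle libraries, against 49.99, 49.3 and 54.8 FPKM in the PBS libraries. All nanoparticle values lay under all PBS values, but nanoparticle replicate 3 stood well above the other nanoparticle libraries (log2 fold change -0.53 ± 0.10 SE, limma adjusted p = 8.9e-04). Ttk, the kinase Mps1 that starts checkpoint signalling, had 14.3, 16.8 and 19.1 FPKM in the nanoparticle libraries, against 19.8, 18.6 and 21.9 FPKM in the PBS libraries, with overlapping groups (log2 fold change -0.26 ± 0.10 SE, limma adjusted p = 0.043). The call for Ttk was lost without nanoparticle replicate 1 (limma adjusted p = 0.14), nanoparticle replicate 2 (0.078), PBS replicate 1 (0.08) or PBS replicate 3 (0.14). It was also lost with no filter on low values (limma adjusted p = 0.098), after rescaling to equal library sums (0.063) and with no intensity trend (0.052), and without nanoparticle replicate 1 the log2 fold change was -0.15. Bub3, the adaptor that docks Bub1 and BubR1 on phosphorylated Knl1, went the other way, with 112, 102 and 110.3 FPKM in the nanoparticle libraries, against 88.2, 93.3 and 94.5 FPKM in the PBS libraries. Its rise was small and without overlap (log2 fold change 0.23 ± 0.06 SE, limma adjusted p = 4.1e-03), and it was lost under upper quartile scaling (limma adjusted p = 0.10). Zwilch, a subunit of the complex that carries Mad1 to kinetochores, averaged 36.9 ± 3.04 FPKM in nanoparticle cells and 38.4 ± 1.89 FPKM in PBS cells and was not called (limma adjusted p = 0.45), but passed as lower under upper quartile scaling (0.047).

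**Figure D2:**
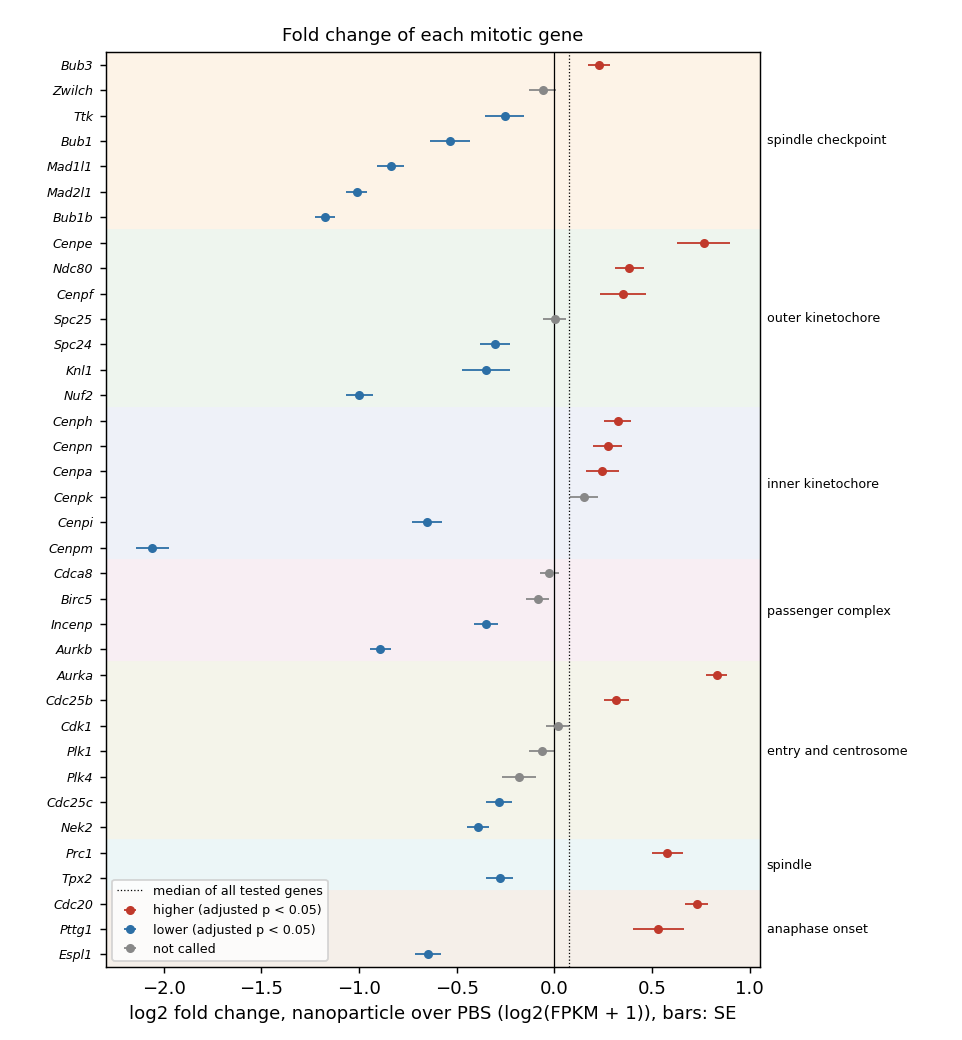
Log2 fold change of each mitotic gene, nanoparticle over PBS, with its SE, by role; red is called higher, blue lower and grey not called, and the dotted line is the median of all tested genes at 0.08. Cenpm stands apart at the low end (-2.06) and Aurka at the high end (0.83), and several roles hold genes on both sides of 0.

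In the outer kinetochore 3 genes were higher, 3 lower and 1 not called. That is 42.9% each way, beside 42.7% higher and 34.5% lower of tested genes. Ndc80 and Nuf2, whose proteins pair in a rod that grips the microtubule, moved in opposite directions. Ndc80 (ENSMUSG00000024056, chromosome 17, 71496100 to 71526857, minus strand) had 35.0, 36.5 and 40.7 FPKM in the nanoparticle libraries, against 26.5, 28.6 and 30.2 FPKM in the PBS libraries. Nuf2 (ENSMUSG00000026683, chromosome 1, 169497934 to 169531464, minus strand) had 23.4, 23.9 and 27.2 FPKM in the nanoparticle libraries, against 48.2, 50.8 and 52.5 FPKM in the PBS libraries. Neither gene's groups overlapped, and Nuf2 was the lower of the pair in nanoparticle cells and the higher in PBS cells. Ndc80 rose (log2 fold change 0.38 ± 0.07 SE, limma adjusted p = 9.1e-04) and Nuf2 fell (log2 fold change -0.998 ± 0.07 SE, limma adjusted p = 6.4e-07).

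Spc24 and Spc25 form the other end of the same complex, toward the chromosome. Spc24 had 52.4, 49.4 and 42.9 FPKM in the nanoparticle libraries, against 61.6, 60.8 and 56.5 FPKM in the PBS libraries, lower without overlap (log2 fold change -0.31 ± 0.08 SE, limma adjusted p = 4.6e-03). Spc25 averaged 46.0 ± 2.67 FPKM in nanoparticle cells and 45.8 ± 1.26 FPKM in PBS cells, with overlapping groups and no call (limma adjusted p = 0.98). Knl1, the scaffold to which the checkpoint kinases dock, had 6.53, 7.29 and 9.51 FPKM in the nanoparticle libraries, against 9.87, 9.13 and 11.3 FPKM in the PBS libraries, and the groups overlapped (log2 fold change -0.35 ± 0.12 SE, limma adjusted p = 0.026). Its call was lost without nanoparticle replicate 1 (limma adjusted p = 0.092), nanoparticle replicate 2 (0.075), PBS replicate 1 (0.052) or PBS replicate 3 (0.09), and with no filter on low values (0.076).

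Cenpe and Cenpf, large coiled-coil proteins of the outermost kinetochore, were both higher. Cenpe (ENSMUSG00000045328, chromosome 3, 135212537 to 135273611, plus strand), a kinesin motor that moves chromosomes to the spindle equator, had 15.4, 16.3 and 22.2 FPKM in the nanoparticle libraries, against 10.2, 8.60 and 11.5 FPKM in the PBS libraries. Every nanoparticle value exceeded every PBS value, and replicate 3 was the highest in each group (log2 fold change 0.76 ± 0.14 SE, limma adjusted p = 5.2e-04). Cenpf had 7.89, 8.49 and 10.98 FPKM in the nanoparticle libraries, against 6.71, 6.21 and 7.74 FPKM in the PBS libraries, a narrow gap between groups (log2 fold change 0.35 ± 0.12 SE, limma adjusted p = 0.021). The Cenpf call was lost without nanoparticle replicate 3 (limma adjusted p = 0.051), PBS replicate 1 (0.056) or PBS replicate 2 (0.078), and under upper quartile scaling (0.09) or with no filter on low values (0.062). Without nanoparticle replicate 3 its log2 fold change was 0.22.

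The centromere and inner kinetochore held the member with the largest change of the 36. Cenpm (ENSMUSG00000068101, chromosome 15, 82233779 to 82244748, minus strand) had 5.88, 5.30 and 4.88 FPKM in the nanoparticle libraries, against 26.2, 27.1 and 23.2 FPKM in the PBS libraries, a ratio of means of 0.21. It was lower without overlap (log2 fold change -2.06 ± 0.08 SE, limma adjusted p = 1.7e-08), and by level it ranked 36 of the 36 members in nanoparticle cells and 24 in PBS cells. Cenpm, Cenpi, Cenph and Cenpk encode a subcomplex of the network that links the centromere to the outer kinetochore, and these 4 genes did not move together. Cenpi had 7.01, 6.72 and 7.68 FPKM in the nanoparticle libraries, against 11.5, 11.2 and 12.7 FPKM in the PBS libraries, lower without overlap (log2 fold change -0.65 ± 0.08 SE, limma adjusted p = 2.9e-05). Cenph had 23.5, 26.3 and 25.1 FPKM in the nanoparticle libraries, against 19.0, 18.9 and 21.4 FPKM in the PBS libraries, higher without overlap (log2 fold change 0.32 ± 0.07 SE, limma adjusted p = 2.1e-03). Cenpk averaged 13.9 ± 0.648 FPKM in nanoparticle cells and 12.5 ± 0.917 FPKM in PBS cells and was not called (limma adjusted p = 0.084), but passed with the replicate number as a block (limma adjusted p = 0.029). Its exons share bases with Ppwd1 on the opposite strand, which averaged 16.4 FPKM, and it is unknown whether the authors' counting was strand-specific.

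Cenpa, the histone H3 variant that marks centromeres, was the most abundant member in PBS cells, with 178, 156 and 143 FPKM in the nanoparticle libraries, against 136, 141 and 124 FPKM in the PBS libraries. It was higher by a small margin (log2 fold change 0.25 ± 0.08 SE, limma adjusted p = 0.022), and the call was lost without nanoparticle replicate 1 (limma adjusted p = 0.061) or PBS replicate 3 (0.081), under upper quartile (0.17) or median-ratio scaling (0.12), and with no filter on low values (0.058). Without nanoparticle replicate 1 its log2 fold change was 0.16. Cenpn, which recognises the CENP-A nucleosome, averaged 25.2 ± 2.22 FPKM in nanoparticle cells and 20.7 ± 1.06 FPKM in PBS cells (log2 fold change 0.27 ± 0.07 SE, limma adjusted p = 7.4e-03). Upper quartile scaling ended the Cenpn call (limma adjusted p = 0.086).

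The chromosomal passenger complex, which corrects faulty attachments of microtubules, had 2 members lower (50%, beside 34.5% of tested genes) and 2 not called. Aurkb (ENSMUSG00000020897, chromosome 11, 69045647 to 69051664, plus strand), its kinase, had 37.8, 40.5 and 38.6 FPKM in the nanoparticle libraries, against 74.0, 73.5 and 71.7 FPKM in the PBS libraries. The groups were well separated (log2 fold change -0.89 ± 0.05 SE, limma adjusted p = 2.0e-07). Incenp, the scaffold that activates the kinase, had 55.4, 59.0 and 58.9 FPKM in the nanoparticle libraries, against 79.3, 70.8 and 71.8 FPKM in the PBS libraries, lower without overlap (log2 fold change -0.35 ± 0.06 SE, limma adjusted p = 4.4e-04). Birc5, which encodes survivin, averaged 115 ± 6.31 FPKM in nanoparticle cells and 122 ± 2.73 FPKM in PBS cells (limma adjusted p = 0.19). Cdca8, which encodes borealin, averaged 85.9 ± 2.58 FPKM in nanoparticle cells and 87.4 ± 1.59 FPKM in PBS cells (limma adjusted p = 0.66). Birc5 and Cdca8 were therefore not called, although both passed as lower under upper quartile scaling (limma adjusted p = 5.7e-03 and 0.021), and Birc5 under median-ratio scaling as well (0.038).

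Kinases and phosphatases of mitotic entry and of the centrosome were divided, with 2 higher, 2 lower and 3 not called. That is 28.6% each way, beside 42.7% higher and 34.5% lower of tested genes. Aurka (ENSMUSG00000027496, chromosome 2, 172356190 to 172370535, minus strand), the kinase of centrosome maturation and spindle assembly, had 151, 158 and 148 FPKM in the nanoparticle libraries, against 84.9, 88.1 and 82.7 FPKM in the PBS libraries. This was the largest rise of the 36 members (log2 fold change 0.83 ± 0.05 SE, limma adjusted p = 3.4e-07). Cdc25b, a phosphatase that activates Cdk1, had 42.7, 37.4 and 38.1 FPKM in the nanoparticle libraries, against 32.1, 31.0 and 31.1 FPKM in the PBS libraries, higher without overlap (log2 fold change 0.32 ± 0.06 SE, limma adjusted p = 1.2e-03). Cdc25c, a second phosphatase of the same kind, had 14.9, 15.8 and 15.1 FPKM in the nanoparticle libraries, against 17.5, 19.6 and 19.5 FPKM in the PBS libraries, lower without overlap (log2 fold change -0.29 ± 0.07 SE, limma adjusted p = 2.8e-03). Nek2, a kinase that separates centrosomes, had 29.3, 30.6 and 31.8 FPKM in the nanoparticle libraries, against 40.9, 39.9 and 40.4 FPKM in the PBS libraries, also lower without overlap (log2 fold change -0.39 ± 0.05 SE, limma adjusted p = 1.0e-04).

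Cdk1 itself, the kinase at the head of mitotic entry, had 43.8, 40.1 and 43.9 FPKM in the nanoparticle libraries, against 41.3, 43.0 and 41.9 FPKM in the PBS libraries. The values overlapped and it was not called (log2 fold change 0.02 ± 0.06 SE, limma adjusted p = 0.80). Plk1, the polo-like kinase that acts from mitotic entry to cytokinesis, averaged 65.8 ± 5.13 FPKM in nanoparticle cells and 68.8 ± 3.19 FPKM in PBS cells (limma adjusted p = 0.40) and passed as lower only under upper quartile scaling among the alternatives run (0.026). Plk4, the kinase of centriole duplication, averaged 20.1 ± 2.57 FPKM in nanoparticle cells and 22.8 ± 1.15 FPKM in PBS cells (limma adjusted p = 0.084). It passed as lower with the replicate number as a block (limma adjusted p = 0.019), without nanoparticle replicate 3 (3.2e-03), and under upper quartile (0.013) or median-ratio scaling (0.017).

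Of the spindle genes, Tpx2 was lower and Prc1 higher. Tpx2, which brings Aurora A to spindle microtubules and activates it, had 48.9, 52.0 and 57.8 FPKM in the nanoparticle libraries, against 64.5, 61.7 and 66.7 FPKM in the PBS libraries (log2 fold change -0.28 ± 0.07 SE, limma adjusted p = 4.0e-03). Prc1, which bundles microtubules in the middle of the anaphase spindle, had 64.5, 65.1 and 77.1 FPKM in the nanoparticle libraries, against 44.4, 43.8 and 48.9 FPKM in the PBS libraries (log2 fold change 0.58 ± 0.08 SE, limma adjusted p = 7.9e-05). Neither gene's groups overlapped, and Tpx2 and Aurka, whose proteins act as a pair, moved in opposite directions.

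The genes of anaphase onset included the most abundant member after treatment. Cdc20 (ENSMUSG00000006398, chromosome 4, 118432901 to 118437352, minus strand) had 188, 172 and 165 FPKM in the nanoparticle libraries, against 106, 107 and 102 FPKM in the PBS libraries, the highest level of the 36 in nanoparticle cells and the third highest in PBS cells. The groups were far apart (log2 fold change 0.73 ± 0.06 SE, limma adjusted p = 2.4e-06). Its exons share 53 bases with those of Elovl1 on the opposite strand, which averaged 113 FPKM. Pttg1 (ENSMUSG00000020415, chromosome 11, 43420250 to 43426251, minus strand) encodes securin, the inhibitor of separase, and had 161, 119.6 and 106 FPKM in the nanoparticle libraries, against 83.0, 84.1 and 96.0 FPKM in the PBS libraries. Nanoparticle replicate 1 was far above the other nanoparticle libraries, though all exceeded the PBS values (log2 fold change 0.53 ± 0.13 SE, limma adjusted p = 4.1e-03). Espl1 (ENSMUSG00000058290, chromosome 15, 102296266 to 102324357, plus strand) encodes separase, the protease that cuts cohesin, and had 12.4, 12.0 and 12.3 FPKM in the nanoparticle libraries, against 20.7, 18.5 and 20.02 FPKM in the PBS libraries. It was lower without overlap (log2 fold change -0.65 ± 0.06 SE, limma adjusted p = 8.4e-06), opposite to its inhibitor.

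Ratios within pairs of genes were taken in each library, where a scale factor common to all genes of the library cancels. Deviations that follow transcript length, described below, do not cancel between genes of unlike length, such as Cdc20 and Mad2l1 or Pttg1 and Espl1. Their part in the ratios was not tested. Aurka and Aurkb encode kinases of the different roles given above and are not partners. The 8 pairs were chosen with earlier results known. The ratio of Aurka to Aurkb was 3.99, 3.91 and 3.85 in the nanoparticle libraries, against 1.15, 1.1996 and 1.15 in the PBS libraries. Cdc20 to Mad2l1, an activator over its checkpoint inhibitor, was 7.31, 6.25 and 6.15 in the nanoparticle libraries, against 1.96, 1.89 and 1.90 in the PBS libraries. Nuf2 to Ndc80 was 0.669, 0.655 and 0.667 in the nanoparticle libraries, against 1.82, 1.78 and 1.74 in the PBS libraries, with little spread in either group. Pttg1 to Espl1 was 13.0, 9.96 and 8.64 in the nanoparticle libraries, against 4.005, 4.54 and 4.79 in the PBS libraries. Bub1 to Bub1b was 0.990, 1.11 and 1.39 in the nanoparticle libraries, against 0.696, 0.722 and 0.782 in the PBS libraries.

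The other pairs differed less. Spc24 to Spc25 was 1.21, 1.02 and 0.927 in the nanoparticle libraries, against 1.38, 1.29 and 1.24 in the PBS libraries. Birc5 to Incenp was 2.14, 1.99 and 1.82 in the nanoparticle libraries, against 1.51, 1.76 and 1.67 in the PBS libraries. Plk1 to Cdk1 was 1.63, 1.61 and 1.40 in the nanoparticle libraries, against 1.70, 1.65 and 1.56 in the PBS libraries, with overlapping groups. The difference of mean log2 ratios was 1.75 for Aurka to Aurkb, 1.77 for Cdc20 to Mad2l1, -1.42 for Nuf2 to Ndc80 and -0.08 for Plk1 to Cdk1. With 3 libraries against 3, the smallest two-sided exact permutation p is 0.1, which any ratio reaches when its groups do not overlap. Here 7 of the 8 ratios reached it (0.11 after Benjamini-Hochberg adjustment over the 8), with 0.4 for Plk1 to Cdk1. Of single tested genes, 78.8% had groups that did not overlap, and the share for other gene pairs was not taken. Because the pairs were chosen with earlier results known, these p-values only describe them.

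**Figure D3:**
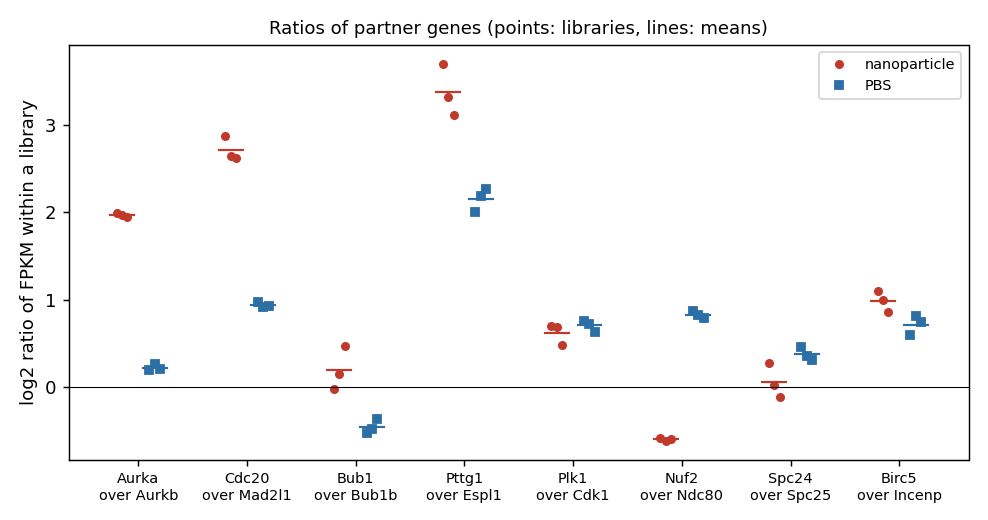
Log2 ratio of FPKM within each library for 8 pairs of genes, nanoparticle libraries as red circles and PBS libraries as blue squares, lines at the means. The Aurka to Aurkb and Cdc20 to Mad2l1 ratios are higher in all nanoparticle libraries, Nuf2 to Ndc80 is lower, and Plk1 to Cdk1 overlaps.

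Within a group, the deviation of a library from the others moved with transcript length. Over the 36 members, the deviation of a gene from its group mean had a Pearson r with the logarithm of its longest transcript of -0.44, -0.48 and 0.60 in nanoparticle replicates 1, 2 and 3, and 0.05, -0.53 and 0.41 in PBS replicates 1, 2 and 3. Over 10207 tested genes with a length the values were -0.25, -0.23 and 0.43, and -0.02, -0.28 and 0.30. The long transcripts of Cenpf, Cenpe and Knl1 were highest in replicate 3 of both groups, but those of Mad2l1 (7557 bases) and Espl1 (6658 bases) in neither. Each length is that of the longest annotated transcript, which may not be the one expressed. Short ones such as Pttg1 and Spc24 were lowest in nanoparticle replicate 3, whereas Cenph (1251 bases) was lowest in nanoparticle replicate 1. The log2 fold change of the members had an r of 0.04 with length (-0.10 over all tested genes). These are descriptions across genes measured in the same libraries, and the part of length in the calls was not tested.

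**Figure D4:**
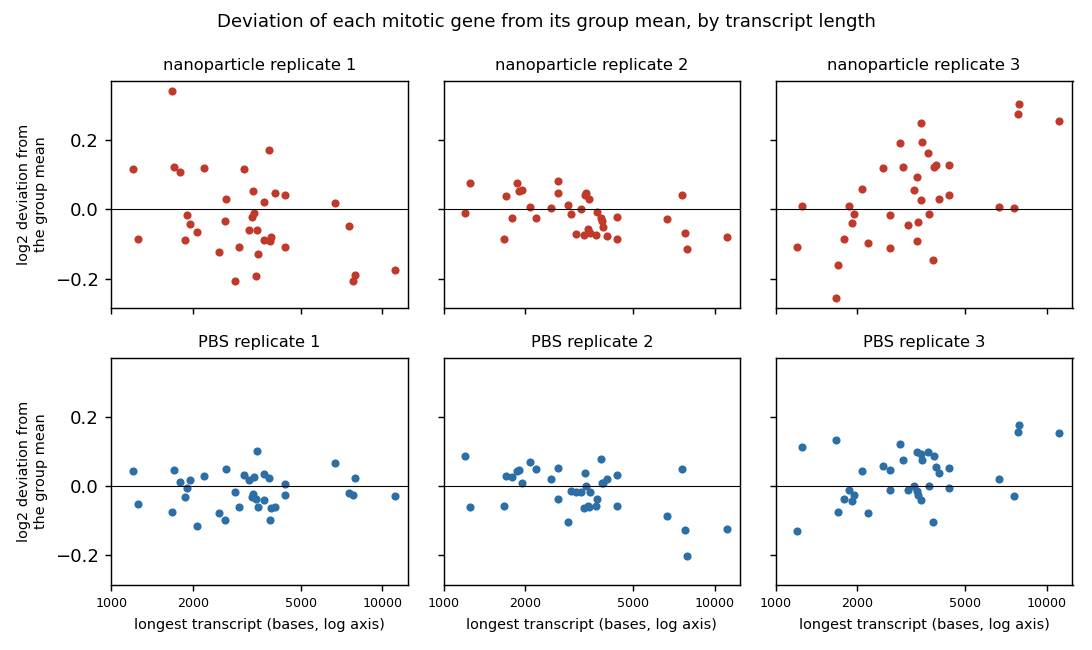
Log2 deviation of each of the 36 mitotic genes from its group mean, against the length of its longest annotated transcript in bases (log axis), in the nanoparticle libraries (top) and PBS libraries (bottom). The longest transcripts, of Cenpf, Cenpe and Knl1, lie above 0 in replicate 3 of both groups.

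Beyond the 36, 104 other genes of mitosis were listed, again with earlier results known, and all passed the filter. Of these, 32 were higher, 52 lower and 20 not called, with a median log2 fold change of -0.15. The share called, 80.8%, is near the background of 77.2%, with 30.8% higher and 50% lower beside 42.7% and 34.5% of tested genes. Among cyclins and regulators of Cdk1, 5 of 14 were higher and 9 lower (35.7% and 64.3%). Ccna2, cyclin A2, averaged 54.4 ± 2.51 FPKM in nanoparticle cells and 95.5 ± 2.15 FPKM in PBS cells, and its exons overlap Exosc9 on the opposite strand. Wee1, the kinase that restrains Cdk1, averaged 6.05 ± 0.378 FPKM in nanoparticle cells and 14.5 ± 0.496 FPKM in PBS cells. Both were lower, whereas Cks2, a small Cdk1-binding protein, was higher at 89.8 ± 6.83 FPKM in nanoparticle cells and 58.6 ± 6.18 FPKM in PBS cells. Ensa, an inhibitor of the phosphatase that opposes Cdk1, was higher as well (log2 fold change 0.63).

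Other centromere and inner kinetochore genes were higher in 6 and lower in 5 of 15. That is 40% and 33.3%, near the 42.7% and 34.5% of tested genes. Cenpt and Cenpq rose (log2 fold changes 0.85 and 0.84). Cenpx and Cenps, a histone-fold pair that binds Cenpt and its partner, fell. Cenpx averaged 21.3 ± 1.27 FPKM in nanoparticle cells and 66.5 ± 3.16 FPKM in PBS cells and Cenps 10.5 ± 0.704 FPKM in nanoparticle cells and 21.3 ± 2.28 FPKM in PBS cells. Other outer kinetochore and checkpoint genes were higher in 6 and lower in 6 of 15 (40% each), also near these shares. Mad2l1bp encodes p31comet, which helps take the Mad2 checkpoint complex apart, and was higher at 33.8 ± 1.08 FPKM in nanoparticle cells and 12.1 ± 1.21 FPKM in PBS cells (log2 fold change 1.42 ± 0.08 SE, limma adjusted p = 1.1e-07). Trip13, the ATPase that works with p31comet, was lower at 10.03 ± 0.757 FPKM in nanoparticle cells and 20.3 ± 0.173 FPKM in PBS cells (log2 fold change -0.95 ± 0.07 SE, limma adjusted p = 8.4e-07). Spdl1, which brings dynein to kinetochores, was higher (log2 fold change 0.95), and Pmf1, of the Mis12 complex, was lower (-1.41).

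Spindle and cytokinesis genes were higher in 4 and lower in 6 of 12. That is 33.3% and 50%, beside 42.7% and 34.5% of tested genes. Nusap1 and Hmmr, which bind spindle microtubules, were higher (log2 fold changes 0.72 and 0.58). Anln and Racgap1, which act at the cleavage furrow, were lower (-0.95 and -0.53). In the anaphase promoting complex, with its activators and inhibitors, 4 of 18 were higher and 8 lower (22.2% and 44.4%). Anapc7 averaged 36.6 ± 1.79 FPKM in nanoparticle cells and 19.5 ± 1.32 FPKM in PBS cells and was higher, as was Anapc16 (log2 fold change 0.64). Fbxo5, which encodes the inhibitor Emi1, averaged 12.2 ± 1.47 FPKM in nanoparticle cells and 25.2 ± 2.47 FPKM in PBS cells and was lower, as was Anapc1 (-0.94). Cohesin and condensin genes were lower in 12 of 17 (70.6%, beside 34.5% of tested genes), with 1 higher, Ncapg (log2 fold change 0.31). Stag1, a cohesin subunit, and Ncapd2, a condensin subunit, had the lowest log2 fold changes there (-1.59 and -1.01).

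Regulators of mitotic transcription were higher in 6 and lower in 6 of 13. That is 46.2% each way, beside 42.7% higher and 34.5% lower of tested genes. Foxm1, a factor that drives G2 and M phase genes, averaged 15.2 ± 0.736 FPKM in nanoparticle cells and 38.8 ± 2.25 FPKM in PBS cells (log2 fold change -1.30 ± 0.07 SE, limma adjusted p = 7.1e-08). Mybl2, which works with the MuvB complex at CHR promoters, averaged 29.6 ± 2.91 FPKM in nanoparticle cells and 59.7 ± 1.59 FPKM in PBS cells (log2 fold change -0.99 ± 0.07 SE, limma adjusted p = 8.7e-07). Lin37, a MuvB subunit, was higher (log2 fold change 0.99), and the repressor E2f8 was lower (-1.12). Cdkn1a, which encodes the CDK inhibitor p21, was higher at 286 ± 17.1 FPKM in nanoparticle cells and 32.6 ± 0.885 FPKM in PBS cells. For comparison, a list of 23 DNA replication genes had 3 higher and 16 lower (13.0% and 69.6%). Its median log2 fold change was -0.64, beside -0.08 for the 36 members. There Tk1, thymidine kinase, was lowest (log2 fold change -2.92), followed by Pola1, a DNA polymerase subunit (-1.62). Gins3, of the replicative helicase, was higher (log2 fold change 0.29). The difference between the lists was not tested.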

How the data were processed

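The authors' deposited table holds 1 value column per library, matched to the labels by library name; the column of PBS replicate 1 adds a suffix of unknown meaning. Values are FPKM, inferred from the deposited values because the header names no unit, and TPM with rows removed cannot be told apart from it. The submitters' processing notes name STAR, featureCounts, GRCm38 and mm10, without versions. Of 22614 rows, 509 without an Ensembl gene identifier were left out of the tests (0.427% to 0.497% of a library). Coordinates, exon overlaps and transcript lengths are from GENCODE M21 (GRCm38), and promoters from RefSeq.

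Genes averaging 1 FPKM or more across the 6 libraries were tested on log2(FPKM + 1) with limma 3.58.1 (R 4.3.3, intensity trend), treatment as the only term, two-sided, Benjamini-Hochberg adjustment, threshold 0.05. The fit was tested on simulated data. Ratios used an exact permutation test (scipy 1.17.1). The members, lists and pairs were chosen with earlier results of these data known. All 36 members are named, and from each other list the 2 called genes at each end of the fold changes, with Foxm1, Mybl2 and Cdkn1a. One gene named by this rule is not reported here. Deviations of same-numbered libraries had an r over tested genes of 0.13, 0.11 and 0.35 for replicates 1, 2 and 3. Unlike numbers gave -0.26 to 0.13. Nanoparticle 1 had a higher r with PBS 2 (0.134) than with PBS 1 (0.130), and over the members these were 0.48 and 0.25. Whether the numbers pair the samples is therefore not settled, and a fit with the number as a block was run beside the main fit. Alternatives covered the pseudocount, the filter, scaling, the trend, the block and leaving out each library.

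Of the 36 members, 10 share exon bases with an opposite-strand gene and 0 with a same-strand gene. Total depth is unknown, so no interval from counts is given.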

Additional observations from a re-analysis of the deposited data

How the results depend on the processing

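Of the 28 called members, 22 kept direction and call under all 15 alternatives. The other 6 (Bub3, Ttk, Knl1, Cenpf, Cenpa, Cenpn) kept direction and lost the call in some, as given beside each. No member called by the main test changed direction. Among calls that held, the log2 fold change of Cenph was 0.21 and of Cdc25b 0.20 under upper quartile scaling, that of Bub3 0.15 under median-ratio scaling, and a pseudocount of 10 gave -1.21 for Cenpm, -0.53 for Mad1l1, 0.47 for Cenpe, -0.42 for Espl1, -0.35 for Cenpi and -0.18 and 0.18 for Knl1 and Cenpf. The median log2 fold change of the members moved to -0.19 under upper quartile scaling and -0.15 under median-ratio scaling, and lay between -0.11 (without nanoparticle replicate 1) and -0.068 with each library left out. Spc25 and Cdk1, not called, changed direction. Spc25 was -0.12 under upper quartile and -0.075 under median-ratio scaling and between -0.037 and 0.045 with a library left out. Cdk1 was -0.10 and -0.061 under these scalings and between -0.0051 and 0.058 with a library left out. With the replicate block, 13 members were higher and 17 lower, Cenpk and Plk4 gaining a call, and it changed no other call among the members; over all tested genes it gave 4609 higher and 3742 lower calls, against 4366 and 3530 without it. With each library left out, 11 to 12 members were higher and 14 to 17 lower, and of the other mitosis genes 30 to 34 and 46 to 52. All tested genes gave 4115 to 4327 higher and 3250 to 3596 lower. The ratios kept their direction, with ranges of 1.73 to 1.77 for Aurka over Aurkb, 1.69 to 1.82 for Cdc20 over Mad2l1 and -1.44 to -1.40 for Nuf2 over Ndc80 (log2). Without a count of fragments, depth sets no stated limit on any of these values.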
